A study of Capra hircus and Bos taurus with 7 samples.

Results

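In vesicles of a bovine milk powder, bta-miR-11976, bta-miR-215, bta-miR-193a-5p and bta-miR-532 took larger shares of the microRNA reads than in vesicles of goat milk powders. These microRNAs (miRNAs), named below without their cattle prefix, are 4 of the 364 mature miRNA names listed for every library, with or without reads. They were chosen by name from the value of the bovine library set against the range of the goat libraries. That contrast is therefore given as a description, without a test. The reads of all libraries were counted under bovine names. For miR-215, the sum with the near-identical miR-192 lay inside the goat range. Small RNA was sequenced from extracellular vesicles, the membrane-bound particles that cells shed into milk, after the powders had been dissolved in warm water and the vesicles separated by size exclusion chromatography. The groups were 1 library from a commercial bovine (Bos taurus) powder, 3 libraries (A to C) from skimmed goat (Capra hircus) powder and 3 libraries (A to C) from whole goat powder. No strain, age or animal is labelled. Nothing in the labels ties the letters to separate packs, herds or isolations, so the spread behind each p-value is that of these libraries alone and may be technical. With 1 bovine library, species, product and library cannot be told apart, and a higher share of reads cannot be told apart from more vesicles or cells of one kind.

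A mature miRNA guides a silencing complex to messenger RNAs that pair with its seed, the bases near its 5′ end, so miRNAs that share a seed are grouped as a family. In human and mouse, miR-215 shares its seed with miR-192, and both are best known from epithelia of gut, liver and kidney, where each is transcribed next to a copy of miR-194. The miR-193a hairpin gives 2 products, of which miR-193a-3p is the more often studied arm and miR-193a-5p the other, and in human its gene lies near one of the miR-365 genes. In human, miR-532 belongs to a group of miRNA genes on the X chromosome, with miR-188, miR-362, miR-500, miR-501, miR-502 and miR-660, inside a chloride channel gene. In the goat RefSeq gene table (assembly ARS1.2), 3 of the 4 members were matched, all but miR-11976. Within 10000 bases of each start, MIR215 has MIR194 as its miRNA neighbour, MIR532 has MIR188 and MIR193A has none. Genes farther away were not looked for, so a miR-365 gene beyond that distance would be missed. MIR502A, MIR660, MIR500, MIR362 and MIR502B lie on 1 chromosome in that order, and the distances between them were not measured. The deposited tables name miRNAs without their sequences, so none is printed.

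The bovine library held 5675489 miRNA reads, the skimmed libraries 7953807 to 9285189 and the whole libraries 6561887 to 11963849, so every goat library was deeper than the bovine one. Levels are given in counts-per-million (CPM), the reads of a miRNA per 1000000 miRNA reads of its library. The 12 milk and mammary epithelium markers summed to 578872 CPM in the bovine library and to 481504 to 520033 CPM in the goat libraries. They did not move as a set: 5 of the 12 lay above every goat library in the bovine one and 5 lay below every one. For comparison, 22.4% of the 214 miRNAs that averaged 10 CPM or more lay above every goat library and 45.8% below. The lists of other cell types were lower in the bovine library, except for muscle. The 7 leukocyte miRNAs summed to 933 CPM against 21551 to 25501 CPM in goat. Most of that sum was miR-146b, at 828 against 18690 to 22721 CPM, and 5 of the 7 lay below every goat library. The 3 stromal and endothelial miRNAs found of 6 summed to 17.2 against 1487 to 2458 CPM. Most of that sum was miR-143, at 16.8 against 1487 to 2441 CPM, and only 1 of the 3 lay below every goat library. The 4 gut and liver miRNAs, which include miR-215, summed to 298 against 437 to 823 CPM. The defining miRNAs miR-122, of liver, and miR-150, of lymphocytes, had 0 bovine reads, but miR-122 also had at most 2 reads in every goat library other than skimmed A (463) and miR-150 at most 1 read in each skimmed library. The single erythroid miRNA found of 3, miR-486, stood at 0.176 against 15.6 to 72.8 CPM, and the single muscle miRNA found of 3, miR-1, at 0.352 against 0.305 to 119.8 CPM. Apart from muscle, the list sums moved with the bovine and goat labels, but not every miRNA in the lists did. The part of these levels in the values below was not tested. All libraries were counted under bovine names, and how a goat read that departs from its bovine entry was counted was not given in the sources used here.

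Among the 4, miR-11976 stood farthest above the goat libraries. It had 2384 reads in the bovine library, or 420.1 CPM with an exact Poisson 95% interval of 403 to 437 CPM. The skimmed libraries A to C held 0.167, 1.06 and 0.722 reads and the whole libraries A to C held 3, 1.06 and 1.92 reads, which is at or under the level of 3 reads in all 6. Fractions arise where the deposited counts are estimates, and only 1 of the 7 values of miR-11976 was a whole number (within 1e-06). The bovine value held place 71 in its library, while the goat values held places 219 to 274. At the bovine CPM the goat libraries would have held 2757 to 5026 reads at their own depth. Over the pooled 7.92 goat reads the bovine level was 2873 times as high, with an exact 95% interval of 1442 to 6599 on rounded reads. Intervals and floors here cover counting error only, since PCR copies without molecular identifiers are not independent molecules.

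The gut and liver miRNA miR-215 showed the same contrast of presence and near absence. It had 1244 reads in the bovine library, or 219 CPM (95% interval 207 to 232). The skimmed libraries A to C held 2, 1 and 3.67 reads, and each whole library held 1 read. Skimmed C was thus the single goat library above the level of 3 reads, and at the bovine CPM the goat libraries would have held 1439 to 2623. The pooled goat reads came to 9.67, against which the bovine level was 1229 times as high (95% interval 644 to 2483 on rounded reads). The bovine value held place 84 in its library and the goat values places 208 to 235.

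**Figure D1:**
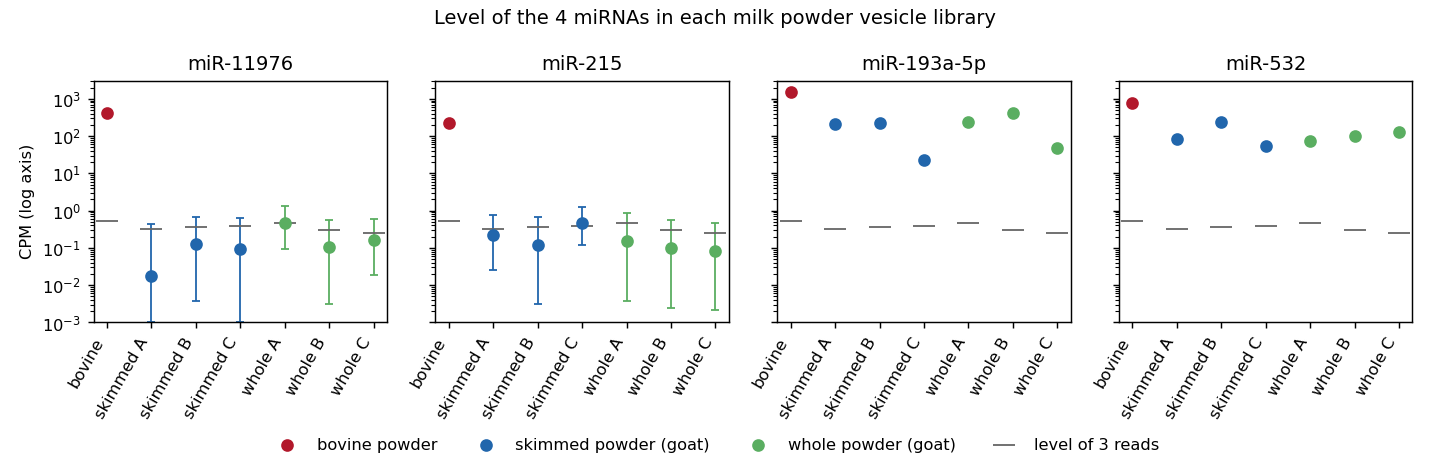
CPM on a log axis of miR-11976, miR-215, miR-193a-5p and miR-532 in the bovine library (red), the skimmed goat libraries (blue) and the whole goat libraries (green); whiskers are exact Poisson 95% intervals, cut at 0.001 CPM, and grey dashes mark the level of 3 reads. miR-11976 and miR-215 lie at about the level of 3 reads or below it in all 6 goat libraries, whereas miR-193a-5p and miR-532 lie between 22.9 and 427 CPM there, below the bovine values of 1547 and 754 CPM.

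The seed partner of miR-215 ran the other way. miR-192 had 5.5 reads in the bovine library, or 0.969 CPM. It stood at 121, 242 and 121 CPM in skimmed A to C and at 86.9, 179.9 and 97.5 CPM in whole A to C. The bovine library thus lay below every goat library for miR-192 and above every one for miR-215. Of the reads of both miRNAs together, miR-215 took 99.6% in the bovine library (exact Clopper-Pearson 95% interval 99.0% to 99.8%). Its share was 0.177%, 0.0498% and 0.379% in skimmed A to C, and 0.175%, 0.0548% and 0.0857% in whole A to C. The sum of the pair, however, was 220.2 CPM in the bovine library, inside the goat range of 87.0 to 242 CPM: skimmed A to C summed to 121, 242 and 122 CPM and whole A to C to 87.0, 180.0 and 97.5 CPM. As near-identical family members, miR-192 and miR-215 can share reads, and the split of reads between their names is uncertain. For each name 5 of the 7 values were whole numbers, all but those of the bovine library and skimmed C. How far reads were divided between the names was not tested.

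**Figure D2:**
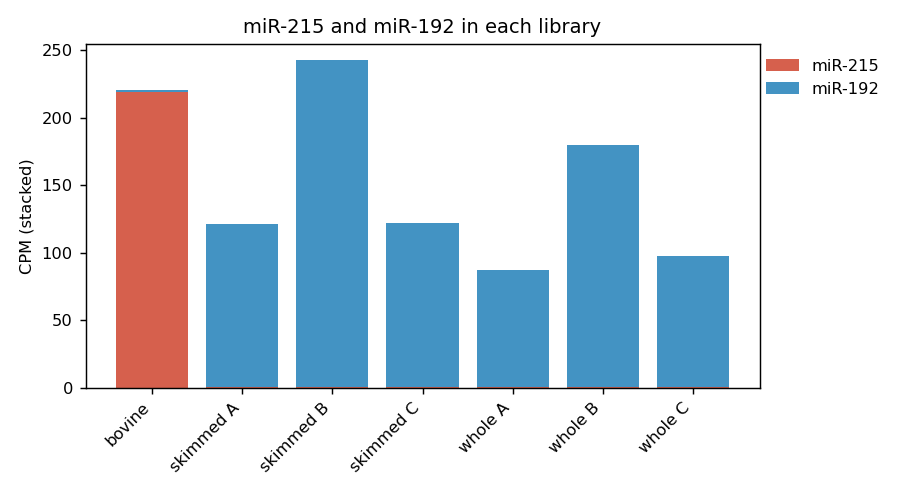
Stacked CPM of miR-215 (red) and miR-192 (blue) in each of the 7 libraries, bovine first, then skimmed and whole goat. The bovine bar of 220.2 CPM is nearly all miR-215, the goat bars of 87.0 to 242 CPM are nearly all miR-192.

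The miR-194 names, which stand for the neighbours of miR-215 and miR-192, did not follow miR-215. In the bovine library miR-194 stood at 77.9 CPM, against 265, 249 and 701 CPM in skimmed A to C and 434, 319 and 360.4 CPM in whole A to C. miR-194b stood at 37.9 CPM in the bovine library and at 44.0 to 208 CPM in the goat libraries. Both lay below all 6 goat libraries, as did 45.8% of the 214 miRNAs that averaged 10 CPM or more. Reads can also be divided between miR-194 and miR-194b, but their sum was likewise lower, at 115.8 CPM in the bovine library and 296 to 909 CPM in goat.

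In contrast to these, miR-193a-5p was present in every library and differed in amount. It had 8781 reads in the bovine library, or 1547 CPM (95% interval 1515 to 1580). The level was 214, 221 and 22.9 CPM in skimmed A to C and 240.3, 427 and 49.0 CPM in whole A to C. The bovine library was above all 6, at 3.62 times the highest of them (whole B; 7.70 times with DESeq2 size factors) and 7.91 times the goat mean of 196 ± 147 CPM (SD, n = 6). The 2 libraries lettered C were the lowest of their powders, and goat levels spanned 18.7-fold, from skimmed C to whole B. The counting intervals of skimmed A (205 to 224 CPM), skimmed B (211 to 231 CPM) and whole A (229 to 252 CPM) overlapped from one to the next, whereas those of the other goat libraries stood apart. All 7 values of miR-193a-5p were whole numbers.

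The spread of miR-193a-5p between goat libraries was wide for its level. The SD of its log2 CPM over the 6 goat libraries was 1.62, against a median of 0.54 for the 62 miRNAs with a goat mean of 100 to under 1000 CPM and reads in each goat library, and 4 of these 62 had a larger SD. The log2 ratio of bovine to goat mean was 2.98, a description only, since the members were chosen on this contrast.

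The partners of miR-193a-5p were scarce or variable. The opposite arm, miR-193a-3p, had 0 reads in the bovine library, which allows up to 0.529 CPM by the limit of 3 reads, and its largest goat value was 20 reads in whole C. The row named miR-193a held the same values in every library as miR-193a-3p and gives no further information. miR-365-3p stood at 170.3 CPM in the bovine library, at 20.5, 19.4 and 0.251 CPM in skimmed A to C and at 33.5, 28.9 and 115 CPM in whole A to C. The bovine library was again above all goat libraries, at 1.48 times the highest. Within goat the 2 miRNAs did not keep a fixed ratio: miR-193a-5p had 91.0 times the reads of miR-365-3p in skimmed C and 0.425 times in whole C, beside 9.09 times in the bovine library. miR-365-5p had 0 bovine reads and at most 1 goat read.

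Likewise miR-532 was present in every library. It had 4282 reads in the bovine library, or 754 CPM (95% interval 732 to 777). The level was 85.1, 239 and 52.7 CPM in skimmed A to C and 75.6, 98.0 and 131 CPM in whole A to C. The bovine library was above all 6, at 3.16 times the highest (skimmed B; 6.70 times with DESeq2 size factors) and 6.65 times the goat mean of 113 ± 66.6 CPM (SD, n = 6). Skimmed B and skimmed C were the highest and the lowest goat library, 4.53-fold apart, so the whole libraries lay within the range of the skimmed ones. Counting intervals overlapped only between skimmed A (79.3 to 91.2 CPM) and whole A (69.1 to 82.5 CPM). The SD of log2 CPM over the goat libraries was 0.75, with 14 of the 62 miRNAs of similar level above it, and the log2 ratio of bovine to goat mean was 2.73.

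Of the 8 cluster partners of miR-532 searched for, 6 were among the counted names. In the bovine library 3 of the 6 lay above every goat library, 2 lay below every one and 1 lay within the range. One of those below, miR-502a, carries no direction, since its bovine value and its 2 lowest goat values are all under 3 reads. Among the 214 miRNAs that averaged 10 CPM or more, 22.4% lay above every goat library and 45.8% below. The most abundant partner, miR-660, stood at 1857 CPM in the bovine library, at 766, 1048 and 1144 CPM in skimmed A to C and at 631, 945 and 942 CPM in whole A to C. The bovine value was 1.62 times the highest of these, a smaller step than the 3.16 times of miR-532. Among the partners above every goat library, miR-362-5p stood at 2.01 times its highest goat value and miR-500 at 10.05 times. The step of miR-500 was thus larger than that of miR-532. Relative to miR-660, miR-532 had 0.406 times the reads in the bovine library, 0.0461 to 0.228 times in the skimmed and 0.104 to 0.139 times in the whole libraries.

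The arms of miR-362 went opposite ways. miR-362-5p stood at 411 CPM in the bovine library, against 204, 116 and 127 CPM in skimmed A to C and 88.2, 106 and 72.1 CPM in whole A to C. miR-362-3p stood at 0.705 CPM (4 reads) in the bovine library, against 56.3, 41.8 and 115 CPM in skimmed A to C and 15.5, 46.0 and 138 CPM in whole A to C. The 5p arm thus took 99.8% of the reads of both arms in the bovine library (lower Clopper-Pearson 95% bound 99.6%) and 34.3% to 85.0% in the goat libraries, with whole C lowest.

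The remaining partners varied widely in goat, each with 3 reads or fewer in some libraries and far more in others. miR-500 had 2188 bovine reads (386 CPM), but 3, 1 and 3 reads in skimmed A to C and 222, 1 and 459 reads in whole A to C. Whole A and whole C were thus the 2 goat libraries with more than 3 reads. miR-502a had 0.667 bovine reads and between 0.147 and 53.2 CPM in goat, and miR-502b had 1.5 bovine reads and at most 18.7 CPM in goat. The cluster as a whole, miR-532 with its 6 partners, summed to 3409 CPM in the bovine library, to 1165, 1481 and 1438 CPM in skimmed A to C and to 856, 1196 and 1321 CPM in whole A to C.

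**Figure D3:**
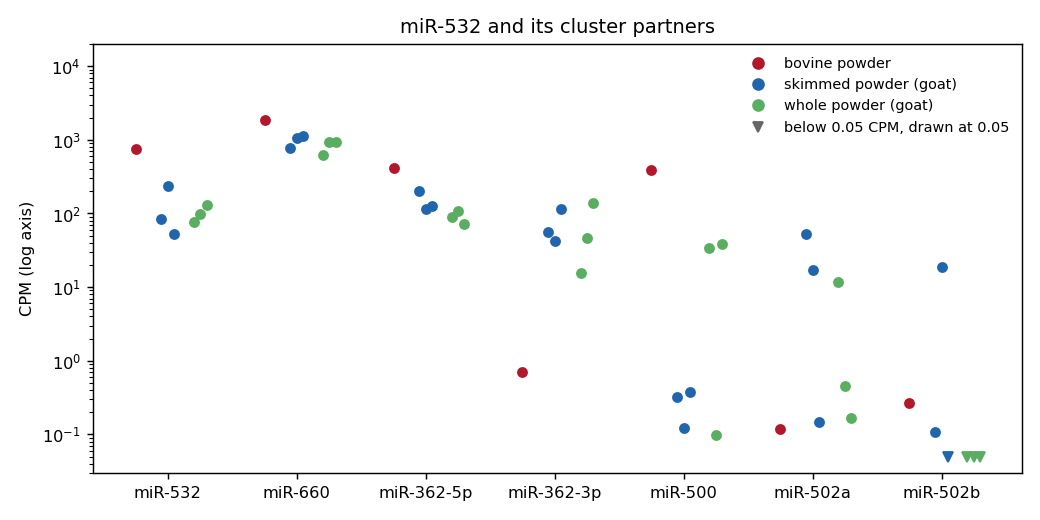
CPM on a log axis of miR-532 and its cluster partners, 1 point per library, with the bovine library (red) left of the skimmed (blue) and whole (green) goat libraries; values below 0.05 CPM are drawn as triangles at 0.05. Bovine points lie above all goat points for miR-532, miR-660, miR-362-5p and miR-500 and below all of them for miR-362-3p. For miR-502a and miR-502b the bovine point and some goat points rest on fewer than 3 reads.

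The 4 miRNAs together took 0.294% of the bovine miRNA reads, 0.00761% to 0.0460% of the skimmed and 0.0180% to 0.0525% of the whole reads. To place them among the rest, the 103 miRNAs with at least 100 CPM in the bovine library were ordered by the ratio of the bovine CPM to the highest goat CPM. The bovine library was above every goat library for 45 of them, or 43.7%, and the members held places 1 (miR-11976), 4 (miR-215), 8 (miR-193a-5p) and 10 (miR-532). Since the members were chosen on this contrast, nothing is read from those places. Of the 214 miRNAs that averaged 10 CPM or more, 22.4% were above and 45.8% below every goat library in the bovine one. The order broke after miR-215, whose ratio of 476 was followed by 13.1 for miR-1260b. Between miR-11976, at 919, and miR-215 stood miR-2285ba at 862 and miR-2285t at 856. Next to miR-193a-5p, at 3.62, stood miR-196a at 6.99 and miR-1306 at 3.53, and just after miR-532, at 3.16, came miR-320a at 3.12.

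**Figure D4:**
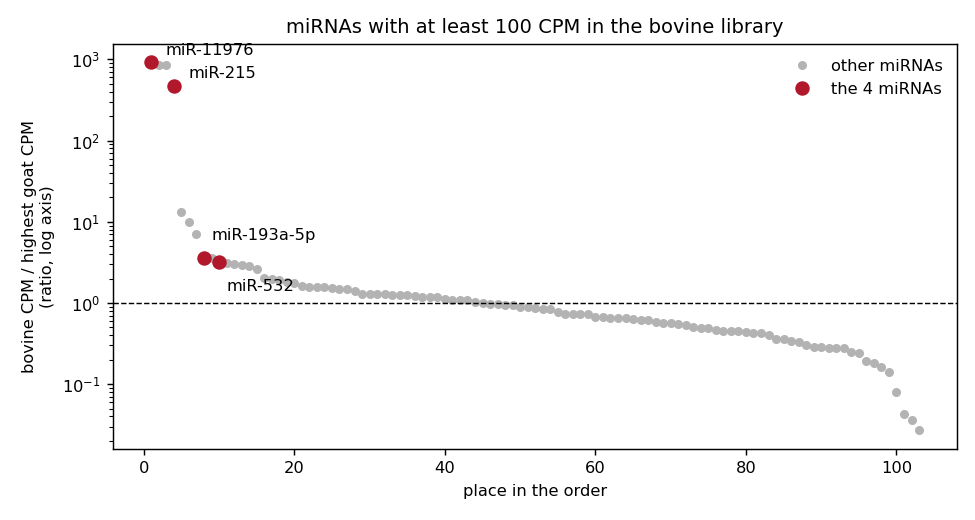
Ratio of the bovine CPM to the highest goat CPM (log axis) for the 103 miRNAs with at least 100 CPM in the bovine library, in falling order; the dashed line marks a ratio of 1. The 4 miRNAs (red) hold places 1, 4, 8 and 10, and the ratio drops from 476 at place 4 to 13.1 at place 5.

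The miRNAs most like each member were sought by Pearson's r of log2(CPM + 1) over the 7 libraries, among the 214 miRNAs. These coefficients rest largely on the bovine library and are descriptions. Nearest to miR-11976 were miR-11978 (r = 1.00), miR-2285ba (1.00) and miR-215 (1.00). Nearest to miR-215 were the same miR-2285ba and miR-11978, with miR-11976 (1.00 each). Here miR-11978 had 544 bovine reads and at most 1 goat read, and miR-2285ba 1053 bovine reads and at most 2 goat reads. For miR-193a-5p they were miR-2284x (0.89, and 0.87 over the 6 goat libraries alone), miR-30f (0.87 and 0.75) and miR-1839 (0.87 and 0.75). For miR-532 they were miR-200c (0.87, and 0.53 over the goat libraries), miR-11976 (0.85 and -0.08) and miR-11978 (0.85 and -0.27). The goat coefficients of miR-11976 and miR-11978 rest on at most 3 and 1 reads per library and carry no direction. Over the 6 goat libraries miR-193a-5p and miR-532 had an r of 0.35 with each other.

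The comparison that the choice of members did not use was skimmed against whole goat powder. miR-193a-5p averaged 153 ± 112 CPM in skimmed and 239 ± 189 CPM in whole powder (SD, n = 3 each). Its log2 fold change was -0.52 ± 1.00 (SE; edgeR quasi-likelihood adjusted p = 0.96, Benjamini-Hochberg across the 209 tested miRNAs). The sign turned to 0.15 when whole B was left out. miR-532 averaged 126 ± 99.4 CPM in skimmed and 101 ± 27.6 CPM in whole powder (SD, n = 3 each). Its log2 fold change was 0.39 ± 0.83 (SE; edgeR adjusted p = 0.96), and it turned to -0.44 when skimmed B was left out. Neither difference was larger than the spread between libraries.

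miR-11976 and miR-215 did not pass the filter on low counts, so 2 of the 4 members were tested in edgeR. Both lie at or near 3 reads, so no fold is given for them. miR-11976 averaged 0.0787 ± 0.0557 CPM in skimmed and 0.241 ± 0.190 CPM in whole powder, and miR-215 0.266 ± 0.176 CPM in skimmed and 0.112 ± 0.0362 CPM in whole powder (SD, n = 3 each; exact two-sided permutation p = 0.2 for each). That test allows no p below 0.1 for 3 libraries against 3. Of all 209 tested miRNAs 1 passed, or 0.478%, namely miR-25, which is not a member. The CPM values of the 2 powders overlapped for all 4 members, while 20.1% of the tested miRNAs did not overlap.

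None of the tested partners passed either. All 3 partners of miR-215 were tested and had values above 0, with a median log2 fold change of 0.20. Over all 209 miRNAs 113 had values above 0 and the median was 0.03. Of the 6 counted partners of miR-532, 4 were tested, all with values above 0 and a median of 0.59. The powders did not overlap for miR-362-5p, at 149 ± 48.0 CPM in skimmed and 88.9 ± 17.2 CPM in whole powder (SD, n = 3 each), with a log2 fold change of 0.85 ± 0.70 (SE; edgeR adjusted p = 0.86). Among the partners of miR-193a-5p, miR-365-3p alone was tested. It averaged 13.4 ± 11.4 CPM in skimmed and 59.2 ± 48.6 CPM in whole powder (SD, n = 3 each), also without overlap, with a log2 fold change of -2.05 ± 1.60 (SE; edgeR adjusted p = 0.81).

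**Figure D5:**
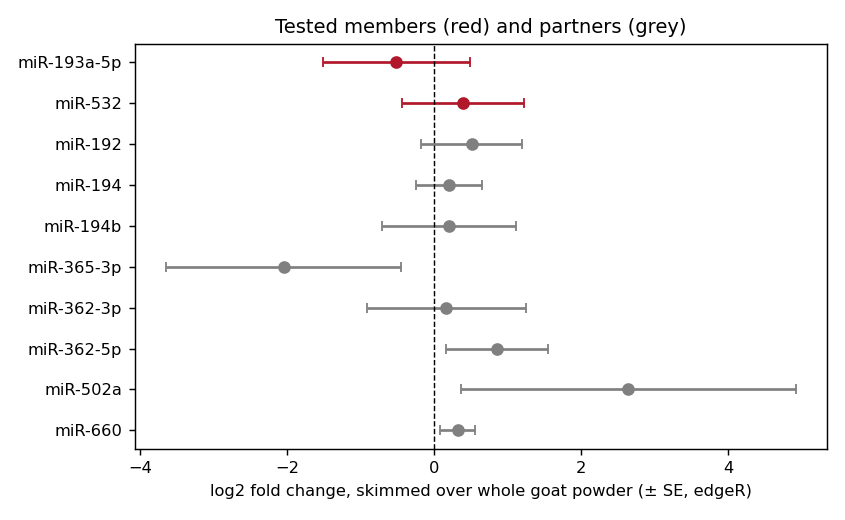
Log2 fold change, skimmed over whole goat powder, with its SE from edgeR, for the 2 tested members (red) and the 8 tested partners (grey). No value passed an adjusted p of 0.05, and the values of miR-193a-5p (-0.52) and miR-532 (0.39) lie within 1 SE of 0.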

How the data were processed

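Small RNA reads of 50 bases were sequenced from milk powder vesicles. Per the file headers, the authors' deposited tables hold counts per mature miRNA under bovine names; since 36.9% to 46.7% of the values above 0 were whole (within 1e-06), they were read as estimated counts, not normalized. The aligner, the counter and the build were not given in the sources used here. CPM was computed over all 364 miRNAs. For edgeR 4.0.16 (R 4.3.3), the deposited estimated counts of the 6 goat libraries were rounded, filtered with the default low-count filter (209 kept), scaled by TMM (factors 0.928 to 1.067) and tested by quasi-likelihood, with an adjusted p of 0.05 as threshold. The SE is the log2 fold change divided by the square root of F. No library was a copy of another: replicates had a chi-square of 497 to 1642 per degree of freedom. The fit was first tested on simulated data. Alternatives were DESeq2 1.42.0, limma-voom (limma 3.58.1), other scalings, no filter, a replicate block and leaving out each library. The named miRNAs were the 4 members, their partners in 3 lists, the 3 most alike by r, the neighbours in the bovine over goat order, and lead or absent markers. The members and lists were chosen with earlier results of these data known.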

Additional observations from a re-analysis of the deposited data

How the results depend on the processing

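The count of miRNAs called between skimmed and whole powder, 1 by edgeR (22 at an unadjusted p under 0.05), was 0 with DESeq2 size factors, with library totals or with the replicate block, 2 without the low-count filter, 12 by DESeq2's Wald test and 0 to 1 over the fits that leave out 1 library. No member was called in any of them, and DESeq2 gave miR-193a-5p and miR-532 no adjusted p. With the replicate block the log2 fold change was -0.65 for miR-193a-5p and 0.15 for miR-532. The letters are not known to pair libraries: same-letter correlations of deviations were 0.20, 0.14 and 0.06, although each library correlated best with its own letter. Leaving out 1 library moved the log2 fold change between -1.03 and 0.15 for miR-193a-5p (0.15 without whole B) and between -0.44 and 0.75 for miR-532 (-0.44 without skimmed B). It moved the skimmed minus whole difference between -0.230 and -0.0537 CPM for miR-11976 and between 0.0565 and 0.227 CPM for miR-215. Both are filtered out, so other scalings and tests were not run on them. The edgeR fit without the filter gave them adjusted p of 0.84 and 0.85, with the same signs.

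The bovine over goat mean log2 ratio kept its sign for all 4 members under its 12 alternatives, and all 4 bovine values stayed above every goat library under each scaling. Scaling by DESeq2 size factors shifted the median ratio of 201 miRNAs by 1.09 and TMM shifted it by 0.44, and all 4 members moved by about that shift: the first gave 12.46 for miR-11976 (11.36 in CPM), 11.25 for miR-215 (10.18), 4.07 for miR-193a-5p (2.98) and 3.83 for miR-532 (2.73). Leaving out 1 goat library gave 11.13 to 12.03 for miR-11976, 10.03 to 10.67 for miR-215, 2.75 to 3.37 for miR-193a-5p and 2.59 to 3.09 for miR-532. The number of miRNAs with the bovine library above every goat library, 48 of 214, was 35 of the 125 with a mean of 100 CPM or more and 48 to 52 of 214 over the other alternatives. The goat values rest on at most 3 reads per library for miR-11976 and 3.67 for miR-215, which limits how closely their ratios are known.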

Other observations

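In the bovine library 3 miRNAs had at least 1000 reads while every goat library had at most 10: miR-11976, miR-215 and miR-2285ba. In the opposite direction, 5 names had at most 10 bovine reads and at least 1000 reads in every goat library. Their rows were miR-374b (9 bovine reads, 1186 to 5916 goat reads), the identical pair miR-3613a and miR-3613b (10 bovine reads, 1075 to 2800 goat reads) and miR-382 with miR-3578 (9 bovine reads each, 1178 to 4238 goat reads). These lists were drawn up after the values were seen.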
